A study of Homo sapiens with 3 samples.

Results

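The HOX genes are described here in C4-2, a human prostate adenocarcinoma line derived from LNCaP. The members are the 39 protein-coding genes named HOXA, HOXB, HOXC or HOXD with a paralog number, out of 58302 genes in the count files. All 39 were found. The 3 libraries were labelled as replicates of C4-2 with a wild type genotype, and no treatment was named for them. The study as a whole set adenocarcinoma lines against neuroendocrine lines and followed depletion of neuropilin-2, but the other samples were not analysed here, so the 3 libraries form 1 group and no conditions are compared. The labels do not say whether the libraries came from separate cultures, so the spread between them may be technical.

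HOX genes encode transcription factors with a homeodomain, a DNA-binding fold, that give body regions their identity along the axis from head to tail. They lie in 4 clusters, and genes with the same number in different clusters are paralogs, copies of a shared ancestral gene. Within a cluster, low-numbered genes are switched on early and near the head, and high-numbered genes late and near the tail. The urogenital sinus, from which the prostate grows, forms where the highest-numbered paralogs act, and HOXB13 is known for its activity in prostate epithelium. Many HOX proteins bind DNA together with the TALE homeodomain proteins of the PBX, MEIS and PKNOX families. Polycomb proteins keep silent HOX genes shut, and trithorax proteins keep active ones open.

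The libraries held 47513470 to 51200272 reads assigned to genes, and the 39 HOX genes took 0.0581% to 0.0593% of them. Levels are given as TPM, reads per exon length scaled to the same total in every library, so that genes of different length can be compared, and as mean ± SD over n = 3 libraries. Detection required 10 or more reads in each of the 3 libraries. The prostate luminal markers fixed as a check, among them KLK3, SLC45A3, FOLH1, KRT18, TMPRSS2 and KRT8, were all detected, 8 of 8, with a summed level of 4068 to 4145 TPM led by KLK3. Of 10 fibroblast markers 4 were detected, with a summed level of 11.9 to 13 TPM led by COL1A1 (10.2 ± 0.392), PDGFRB and THY1, and COL1A2 had 0 reads. Of 8 blood and immune markers 4 were detected, summing to 3.81 to 5.13 TPM and led by CSF1R, LYZ and GATA1, with CD3E and HBB at 0 reads. The part of other cell types in the HOX levels was not tested.

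Most HOX genes were transcribed in C4-2, and HOXB13 stood far above the others. Of the 39 genes, 32 (82.1%) were detected, against 71.8% of all 19708 protein-coding genes. The mean was 1 TPM or more for 29 HOX genes (74.4%), against 62.7% of protein-coding genes. At 10 TPM the order turned: 10 HOX genes (25.6%) reached that level, against 42.9% of protein-coding genes. The median over the 39 genes was 2.18 TPM, and the median over all protein-coding genes was 5.43 TPM, with 14 HOX genes above it and 25 below. In bulk RNA such as this, fewer cells with a transcript and less transcript per cell cannot be told apart.

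**Figure D1:**
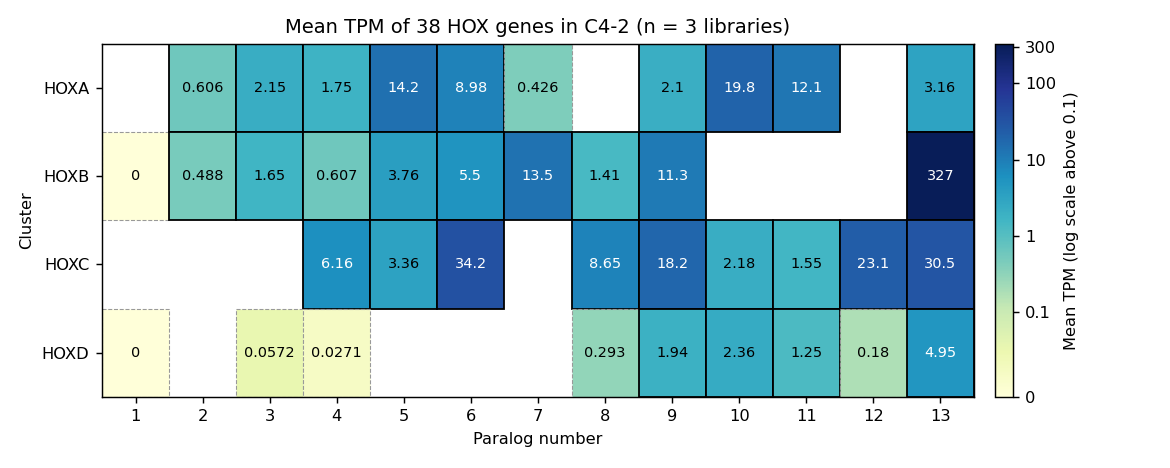
Mean TPM of 38 of the 39 HOX genes, with the cluster in rows and the paralog number in columns, and colour on a log scale above 0.1 TPM. Dashed cells are genes with fewer than 10 reads in some library, and white positions show no gene. HOXB13 is the darkest cell at 327 TPM, and 5 of the 9 HOXD cells are dashed.

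HOXB13 held more than the other 38 genes together. Its TPM was 325, 329.8 and 327 in replicates 1, 2 and 3, from 18898, 17610 and 18947 reads, or 327 ± 2.58 TPM. Among protein-coding genes its percentile by mean TPM was 98.5. It made up 57.3% of summed HOX TPM, with an SD of 0.441 percentage points. The other 38 genes summed to 244 ± 2.62 TPM. HOXB13 is annotated on chromosome 17 (48724763 to 48729178, minus strand, GRCh38), and none of its 3467 exon bases is shared with another gene.

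Below HOXB13 came 9 genes from 3 clusters with means between 11.3 and 34.2 TPM. When only exon bases not shared with another gene were counted as length, HOXA6 joined them at 14.4 TPM, above HOXA5 (13.7 TPM). With that length HOXA10 (25.9 TPM) also passed HOXC12 (22.3 TPM), and HOXA11 (16.7 TPM) passed HOXA5. The order that follows uses all exon bases. HOXC6, a gene often found in prostate tumours, had 35.4, 34.0 and 33.3 TPM (34.2 ± 1.03). HOXC13, known from hair follicles where it drives hair keratin genes, had 31.0, 29.9 and 30.6 TPM (30.5 ± 0.541). These ranges did not overlap, and neither did those of HOXC13 and the next gene, HOXC12. HOXC12 had 21.9, 23.9 and 23.6 TPM (23.1 ± 1.09), and HOXA10, which patterns the uterus and is active in blood progenitors, had 20, 21.4 and 18.1 TPM (19.8 ± 1.65). HOXC9 had 20.4, 16.1 and 18.2 TPM (18.2 ± 2.14), and its range overlapped that of HOXA10. HOXA5, needed for lung development, followed with 15, 13.7 and 14 TPM (14.2 ± 0.681). HOXB7 (13.5 ± 1.43), HOXA11 (12.1 ± 1.77), a regulator of uterine and limb growth, and HOXB9 (11.3 ± 0.966) closed the group, and neighbours among the last 4 overlapped. HOXD had no gene at this level.

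The other detected genes ran from 8.98 down to 0.488 TPM, and most neighbours overlapped, with breaks below HOXC8 and below HOXD11. HOXA6 (8.98 ± 1.14), HOXC8 (8.65 ± 0.816), HOXC4 (6.16 ± 0.435) and HOXB6 (5.50 ± 0.345) were the highest of them. HOXD13, a regulator of digit and genital development, was the highest HOXD gene at 4.95 ± 1.33 TPM. Then came HOXB5 (3.76 ± 0.626), HOXC5 (3.36 ± 0.820), HOXA13 (3.16 ± 0.489), HOXD10 (2.36 ± 0.464) and HOXC10 (2.18 ± 0.153). Their ranges ran into each other. HOXA3 (2.15 ± 0.339), HOXA9 (2.10 ± 0.178), a gene best known from leukaemia, HOXD9 (1.94 ± 0.409), HOXA4 (1.75 ± 0.803), HOXB3 (1.65 ± 0.0805) and HOXC11 (1.55 ± 0.287) lay close together. HOXB8 (1.41 ± 0.590) and HOXD11 (1.25 ± 0.0825) were among the last above 1 TPM. HOXB4 (0.607 ± 0.0916), HOXA2 (0.606 ± 0.151) and HOXB2 (0.488 ± 0.155) were detected below it. Over all 39 genes in order of mean TPM, 8 of 38 neighbouring pairs had ranges that did not overlap, and 7 of the 8 were among the 13 highest genes.

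**Figure D2:**
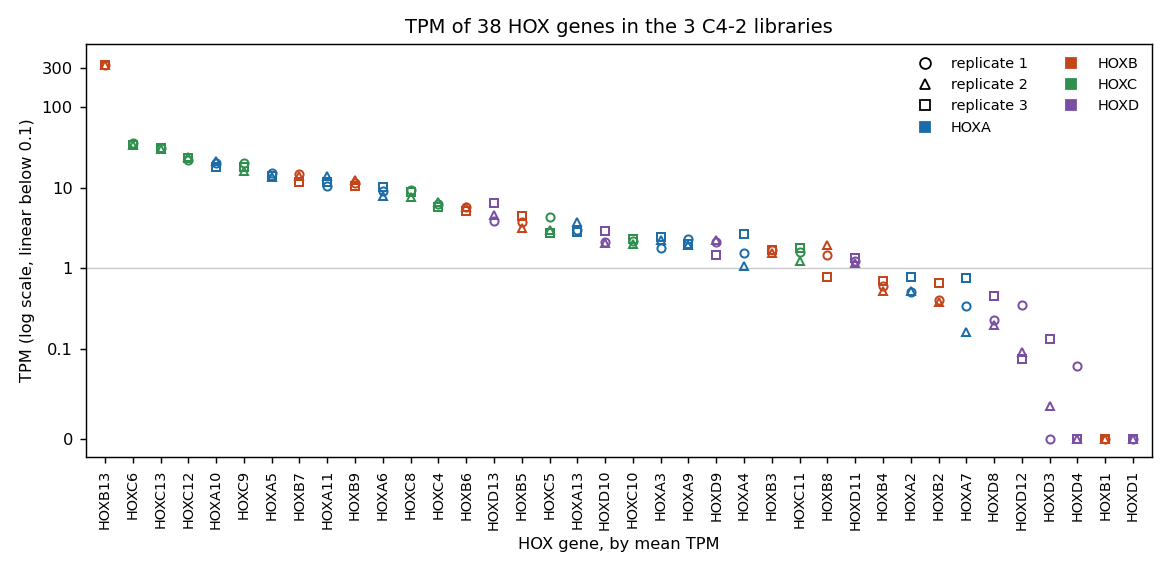
TPM of 38 of the 39 HOX genes in the 3 libraries, on an axis that is logarithmic above 0.1 TPM and linear below. Genes are in order of mean TPM, symbols mark replicates and colours mark clusters. HOXB13 sits near 327 TPM, the next gene at 34.2 TPM, and HOXB1 and HOXD1 at 0.

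The 7 genes that were not detected came mostly from HOXD. HOXB1, which specifies a segment of the hindbrain, and HOXD1 had 0 reads in every library. In the smallest library the 3 reads that a count of 0 allows (6 where both mates of a fragment are counted) would, at 3, equal 0.0788 TPM for HOXB1 and 0.0986 TPM for HOXD1. HOXD4 had 2, 0 and 0 reads, HOXD3 0, 2 and 8, and HOXD12 8, 2 and 2. HOXD8 had 10, 8 and 20 reads and HOXA7 14, 6 and 31 reads. These last genes missed the rule through replicate 2 alone. Exon bases shared with another gene made up 80.5% of HOXD4, 73.0% of HOXD3, 62.5% of HOXA7 and 57.4% of HOXD1, where reads overlapping both genes would have been dropped. HOXB1, HOXD8 and HOXD12 share none. The limit given for HOXD1 is over all its 1975 exon bases, and over its 841 unshared bases it would be higher.

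The clusters differed in both the number of detected genes and their summed level. HOXC had all 9 genes detected and all 9 at 1 TPM or more, with a median of 8.65 TPM. HOXA had 10 of 11 detected (median 2.15 TPM), HOXB 9 of 10 (median 2.71 TPM) and HOXD 4 of 9 (median 0.293 TPM). Summed over its genes, HOXB reached 364, 369 and 363 TPM, HOXC 132, 124 and 127, HOXA 65.1, 68.0 and 66.6, and HOXD 9.97, 10.4 and 12.8. No 2 clusters overlapped in these sums. HOXB13 made up 89.5% of the HOXB sum, and without it HOXB fell below HOXA, at 39.6, 39.5 and 35.7 TPM. The largest shares in the other clusters were smaller: 26.8% for HOXC6 in HOXC, 29.8% for HOXA10 in HOXA and 44.3% for HOXD13 in HOXD.

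Within libraries, HOXB exceeded HOXC by 1.52 ± 0.0535 log2 units of summed TPM, HOXA by 2.46 ± 0.0236 and HOXD by 5.06 ± 0.200. HOXC exceeded HOXA by 0.94 ± 0.0754 and HOXD by 3.54 ± 0.210 log2 units. HOXD minus HOXA was −2.60 ± 0.189 log2 units. Each of the 6 differences had the same sign in 3 of 3 libraries. The exact two-sided sign-flip permutation test gave p = 0.25 for each (0.25 after Benjamini-Hochberg adjustment over the 6), the smallest that 3 libraries allow, so no such test could pass 0.05.

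By paralog number, levels were low at the head end and high at number 13. Paralogs 1 to 3, which act in the hindbrain and neck, had 5 of 8 genes detected and summed to 6.25 ± 0.741 TPM. Paralogs 4 to 8 had 12 of 15 detected and summed to 103 ± 4.20 TPM. Paralogs 9 to 12 had 11 of 12 detected and summed to 96.1 ± 2.29 TPM. All 4 genes of paralog 13 were detected, at a sum of 366 ± 3.01 TPM. HOXB13 made up 89.4% of that sum, and the 3 other paralogs followed in the order HOXC13, HOXD13 and HOXA13. Paralogs 9 to 13 exceeded 1 to 8 by 2.08 ± 0.0617 log2 units, with the same sign in all 3 libraries (exact sign-flip permutation p = 0.25). Without paralog 13 the sign of the difference in sums turned. Paralogs 9 to 12 minus 1 to 8 gave −0.18 ± 0.0714 log2 units, again with 1 sign throughout (exact sign-flip permutation p = 0.25). These sums cover unequal numbers of genes, 12 and 23. The median gene was higher in paralogs 9 to 12 (2.27 TPM) than in paralogs 1 to 8 (1.65 TPM).

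Within most paralog groups a single gene carried the level. HOXB13 was 10.7 ± 0.275 times HOXC13, HOXA10 was 8.69 ± 2.15 times HOXD10, HOXA11 was 8.12 ± 2.79 times HOXC11 and HOXC8 was 7.17 ± 3.76 times HOXB8. Smaller ratios were found for HOXC4 over HOXA4 (4.10 ± 1.96), HOXC6 over HOXA6 (3.86 ± 0.524) and HOXA5 over HOXB5 (3.84 ± 0.595). With unshared exon bases as length, HOXC4 was 2.63 ± 1.26 times HOXA4 and HOXC6 was 2.74 ± 0.373 times HOXA6. HOXC5 then replaced HOXB5 as the next gene, with HOXA5 at 1.75 ± 0.324 times its level. HOXD11 likewise replaced HOXC11, with HOXA11 at 11.0 ± 2.20 times the level of HOXD11. Paralogs 9 were the most even of the higher groups, with HOXC9 at 1.62 ± 0.273 times HOXB9. HOXA3 was 1.31 ± 0.231 times HOXB3. HOXA2 was 1.26 ± 0.0945 times HOXB2 and higher in every library, though their ranges over the libraries overlapped. In the other 12 groups the leading gene's range lay wholly above that of the next. The leading gene was a HOXA gene in 6 groups, a HOXC gene in 5 and a HOXB gene in 2 (paralogs 7 and 13). No group was led by HOXD.

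Along the chromosomes, high and low genes alternated. In HOXA, the neighbours HOXA5 and HOXA6 were followed by HOXA7 at 0.426 ± 0.312 TPM and HOXA9, then by HOXA10 and HOXA11, then by HOXA13. In HOXC, the highest genes stood at the high-numbered end (HOXC12 and HOXC13) and in the middle (HOXC6 and HOXC9), and HOXC10 and HOXC11 between them lay at 2.18 and 1.55 TPM. HOXB rose from 0 reads at HOXB1 to 13.5 TPM at HOXB7, with HOXB4 and HOXB8 lower than the genes on either side. HOXD lay at 0.293 TPM or less from HOXD1 to HOXD8, and its 4 detected genes were HOXD9, HOXD10, HOXD11 and HOXD13. The clusters span 107 kb (HOXA), 201 kb (HOXB), 117 kb (HOXC) and 98.0 kb (HOXD), and HOXB13 stands far from HOXB9 in the longest of them.

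**Figure D3:**
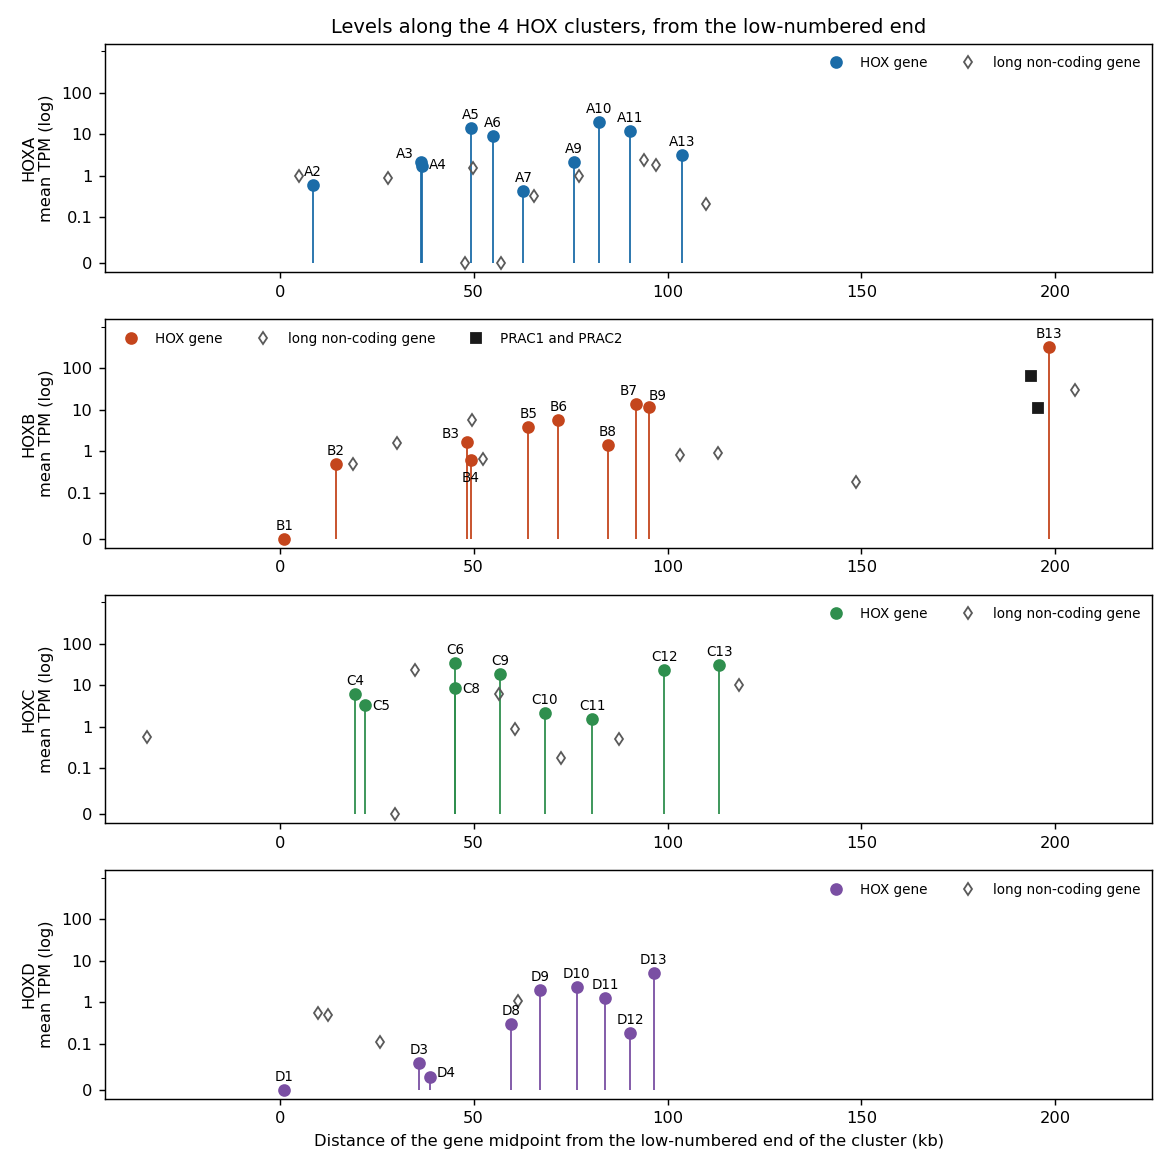
Mean TPM (log scale above 0.1, linear below) against the distance of each gene's midpoint from the low-numbered end of its cluster, in kb, with 1 panel per cluster. Filled circles are HOX genes (38 of the 39), open diamonds are long non-coding genes and black squares are PRAC1 and PRAC2. HOXB13, at 327 TPM, stands apart at the right of the HOXB panel beside PRAC1 at 66.6 TPM.

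Reads were also counted for the genes next to HOXB13. PRAC1, a small gene named for its expression in prostate, rectum and colon, lies 2241 bases from HOXB13 and had 58.8, 65.9 and 74.9 TPM (66.6 ± 8.09), all above every HOX gene but HOXB13. PRAC2 ends 5 bases from HOXB13 on the opposite strand and had 13.1, 8.70 and 11.9 TPM (11.2 ± 2.26). PRAC2 shares 41.7% of its exon bases with other genes. The counting named no strand, so reads running past the end of HOXB13 could have been counted for PRAC2. Such reads could also reach PRAC1, downstream on the same strand as HOXB13, and neither was tested. An unnamed long non-coding gene on the other side of HOXB13, ENSG00000242407 (chromosome 17, 48733091 to 48733888, plus strand), reached 29.8 ± 3.10 TPM. TTLL6, the next coding gene, lay at 3.34 ± 0.279 TPM. Of 16 other coding genes within 200 kb of the clusters, 12 were detected, a share near the 71.8% of all protein-coding genes, led by the housekeeping ATP synthase gene ATP5MC1 (125 ± 1.63 TPM), CBX5 (90.8 ± 7.71) and UBE2Z (77.3 ± 2.35). CALCOCO2, MTX2, SMUG1, SKAP2 and LNPK lay between 13.5 and 45.2 TPM. The homeobox gene EVX1, beyond HOXA13, was at 0.703 ± 0.167 TPM, and EVX2, beyond HOXD13, had 0 reads. SKAP1, the coding neighbour on the HOXB1 side, had 4, 8 and 0 reads. The 2 genes ENSG00000257184 and ENSG00000273049 lie wholly in exons of other genes and had 0 reads.

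Of 30 long non-coding genes within 20 kb of the clusters, 19 were detected, against 26.8% of all 14262 long non-coding genes in the files. ENSG00000260597 (chromosome 12, 54019910 to 54022589, plus strand) lies inside the spans of HOXC4 and HOXC6, on the same strand, and shares no exon base with them. Its 2680 exon bases fill its whole span, so reads from unspliced HOXC4 or HOXC6 transcripts there would be counted for it. The part of such reads was not tested. ENSG00000260597 was second at 23.8, 23.6 and 23.2 TPM (23.5 ± 0.331). HOXC13-AS (10.2 ± 1.00), HOXC-AS1 (6.04 ± 0.912), HOXB-AS3 (5.72 ± 0.314) and HOXA11-AS (2.39 ± 0.235) followed. HOTAIR, a HOXC transcript studied for its link to Polycomb, was at 0.493 ± 0.201 TPM from 13, 28 and 21 reads. HOTTIP, beside HOXA13, was at 0.204 ± 0.0117 TPM, HOTAIRM1, at the low-numbered end of HOXA, at 0.975 ± 0.380, and HAGLR, beside HOXD1, at 0.554 ± 0.106. ENSG00000253508, HOXB-AS2, HOXA-AS3, HOXD-AS2, HOXA10-AS, LINC03057, HOXC-AS2, HOXA-AS2 and FLJ12825 were detected between 0.553 and 1.76 TPM. The pseudogene ENSG00000218175, beyond HOXD1, was detected at 5.78 ± 1.22 TPM. The counting options in the file headers name no strand, so strand cannot separate reads from overlapping genes. Reads on exon bases shared with another gene would have been dropped, so levels over all exon bases may be too low for such genes. Shared exon bases made up 63.1% of HOXA11-AS, 62.3% of HOXA10-AS and 44.9% of HOTAIRM1.

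Overlap between genes also touched the HOX genes themselves. Exon bases were shared with a gene on the opposite strand in 18 of the 39 and with a gene on the same strand in 18, and 15 of the 39 shared none. HOXA11, for instance, shares 30.6% of its exon bases with HOXA11-AS, and HOXA10 shares 26.3%. HOXC5 shares 59.9%. When only unshared exon bases were counted as length, HOXC5 moved from 3.36 to 8.06 TPM, HOXA4 from 1.75 to 3.20 and HOXA6 from 8.98 to 14.4, and HOXA7, which was not detected, from 0.426 to 1.09. HOXB13, without shared bases, moved from 327 to 315 TPM because the other genes' lengths shrank.

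The HOX clusters also hold miRNA genes, several of which are known to target HOX transcripts. Their mature sequences from RefSeq (GRCh38.p14) are shown because members of 3 clusters carry the same or nearly the same miRNA, with the seed (bases 2 to 8) in capitals.
hsa-miR-196a-5p: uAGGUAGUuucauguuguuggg
hsa-miR-196b-5p: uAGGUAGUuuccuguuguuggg
hsa-miR-10a-5p: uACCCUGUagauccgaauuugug
hsa-miR-615-3p: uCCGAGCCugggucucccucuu
The miR-196 sequences share the seed AGGUAGU and come from MIR196A1 in HOXB, MIR196A2 in HOXC and MIR196B in HOXA. Their hairpins held 2 reads or fewer in every library, and the hairpin of MIR10A held 0. MIR196B and MIR10A lie wholly in exons of other genes, so their reads would have been dropped. MIR10B, in HOXD, had 2, 4 and 1 reads. MIR615 (chromosome 12, inside HOXC5) was the exception, with 16, 36 and 25 reads. These reads can come from longer transcripts across the hairpin, and mature miRNAs, being short, are not measured by these libraries.

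RefSeq start sites could be matched for 20 of the 39 genes, with 27 promoter windows running from 250 bases before to 50 after the start (GRCh38.p14). No window was matched for HOXB13 or for any other HOXB gene but HOXB1. CpG dinucleotides, a mark of many developmental promoters, numbered 22 per window at the median, against 14 over all 35116 windows of the table. The quartiles over all windows were 4 and 28, so the members' median lay between them. HOXD1, with 0 reads, had 36 CpG, HOXB1, also with 0 reads, had 11, HOXA13 at 3.16 TPM had 44, and HOXA11 at 12.1 TPM had 13. The 250 bases before the start are shown for a gene with 0 reads, the highest HOXD gene and a gene above 10 TPM, with each CpG in capitals.
HOXB1: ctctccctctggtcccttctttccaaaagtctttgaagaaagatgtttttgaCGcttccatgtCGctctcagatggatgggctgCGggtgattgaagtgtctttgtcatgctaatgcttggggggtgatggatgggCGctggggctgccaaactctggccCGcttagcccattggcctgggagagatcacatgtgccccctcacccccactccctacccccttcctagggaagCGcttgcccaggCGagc
HOXD13: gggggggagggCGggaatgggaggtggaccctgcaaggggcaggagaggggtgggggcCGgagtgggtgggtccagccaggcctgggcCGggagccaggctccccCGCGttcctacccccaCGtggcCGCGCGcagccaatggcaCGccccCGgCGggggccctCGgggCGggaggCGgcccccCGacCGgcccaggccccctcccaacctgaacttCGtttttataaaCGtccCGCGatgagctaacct
HOXA11: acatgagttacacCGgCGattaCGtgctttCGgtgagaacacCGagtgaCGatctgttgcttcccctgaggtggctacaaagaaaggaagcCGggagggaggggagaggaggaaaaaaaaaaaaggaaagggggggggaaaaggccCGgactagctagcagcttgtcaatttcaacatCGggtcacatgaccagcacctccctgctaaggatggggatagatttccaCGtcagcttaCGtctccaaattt
They lie at chr17:48531012-48531261 (minus strand), chr2:176092471-176092720 (plus strand) and chr7:27185233-27185482 (minus strand), and hold 7, 21 and 11 CpG. HOXC4 and HOXC5 have the same RefSeq start, with 15 CpG in the window. Motifs were searched on either strand of the 300-base windows. CCAATAAA and CTCGTAAA, sequences preferred by HOXB13 and its relatives, were in 0 of the 27 member windows, against 0.934% and 0.137% of all windows. TGATTGAT, a site for HOX and PBX proteins together, was in 2 of 27 (HOXA2 and HOXD11) and 0.484% of all. AGAACA, the core of a steroid hormone receptor half-site, was in 5 of 27 member windows and 14.8% of all. The 27 windows are not independent, since HOXC4 and HOXC5 share one and HOXA3 has several. A match is only a run of letters and shows no binding.

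The spread between libraries differed from member to member. For each gene, a chi-square test set the 3 read counts against library sizes scaled by TMM, a method that takes most genes as unchanged, with Benjamini-Hochberg adjustment over all 21039 detected genes. At an adjusted p under 0.05, 13 of the 32 detected HOX genes (40.6%) varied beyond counting noise, against 46.1% of all detected genes. Low counts were mostly even (75.1% to 81.6% of counts from 1 to 20), as when both mates of a fragment are counted, which makes counts look more precise than they are. With the statistic divided by 2 to allow for this, 3 of 32 HOX genes (9.38%) passed, against 17.6% of all detected genes. The members' shares were set beside those of all genes as a description, and the difference was not tested. Genes with more reads pass at smaller differences, and the shares were not matched for read count. Leaving out replicate 1 gave 34.4% of HOX genes against 32.8% of all, and leaving out replicate 2 gave 26.5% against 23.9%. Without replicate 3 the order was the other way, at 9.38% against 23.8%. The median ratio of the highest to the lowest library was 1.25 over the detected HOX genes and 1.18 over all detected genes.

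HOXD13, HOXA4 and HOXB13 passed on either count. HOXD13 had 144, 159 and 240 reads, highest in replicate 3 by 1.72-fold over replicate 1 after scaling (chi-square test with Benjamini-Hochberg adjustment, adjusted p = 2.21e-06, and 0.00501 with the statistic divided by 2). HOXA4 had 45, 29 and 77 reads, 2.58-fold apart (adjusted p = 6.78e-05 and 0.0226), and it shares 47.3% of its exon bases with other genes. Replicate 3 was again the highest. HOXB13 differed by only 1.05-fold (adjusted p = 0.000199 and 0.0356), and the library with the most reads after TMM scaling was replicate 3, whereas by TPM it was replicate 2. Without replicate 3, none of these 3 passed (adjusted p = 0.321, 0.254 and 0.650 in the order above), and 3 HOX genes passed in all (HOXC9, HOXA11 and HOXC5). Each of the 13 calls was lost when at least 1 library was left out.

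The other 10 that passed the undivided test went in different directions. HOXC9 (574, 416 and 510 reads, adjusted p = 0.00126) and HOXC5 were highest in replicate 1. HOXA11 (407, 497 and 449 reads, adjusted p = 0.00183), HOXB8 (51, 62 and 27 reads, adjusted p = 0.00274), HOXA10 and HOXA13 were highest in replicate 2. HOXD10, HOXB5, HOXA3 and HOXA6 were highest in replicate 3. Their ratios of highest to lowest library ran from 1.12 for HOXA10 to 2.36 for HOXB8. HOXC6, HOXC13 and HOXC12, the highest genes after HOXB13, did not pass (adjusted p = 0.210, 0.246 and 0.0602), with ratios of 1.07, 1.08 and 1.11.

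**Figure D4:**
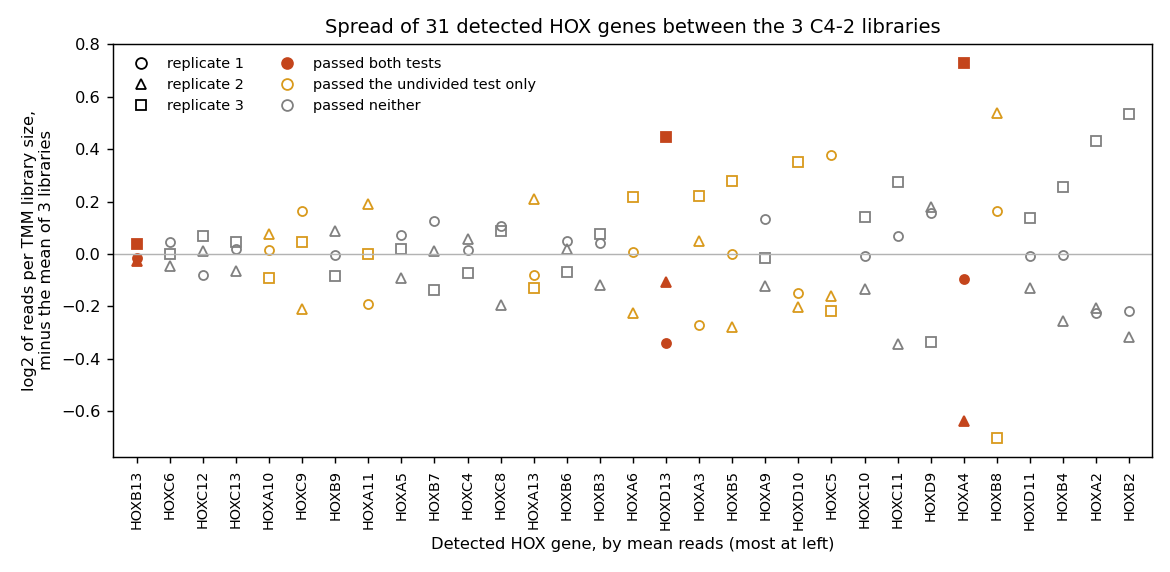
Reads per TMM library size in each library, as the log2 difference from the mean of the 3 libraries, for 31 of the 32 detected HOX genes in order of mean reads. Symbols mark replicates, and colours mark genes that passed both forms of the chi-square test (red), the undivided form only (yellow) or neither (grey). HOXD13 and HOXA4 spread widely with replicate 3 on top, whereas HOXB13 is tightly grouped.

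Of the genes that act with HOX proteins, all 9 for TALE partners were detected, against 71.8% of protein-coding genes. All 9 were far below HOXB13. PBX2 led at 38.0, 37.8 and 38.4 TPM (38.1 ± 0.308), followed by PKNOX1 (11.5 ± 0.252), PBX3 (8.05 ± 0.233) and PBX4 (7.21 ± 0.453). MEIS1, a partner of HOXB13 in prostate cells, was at 2.32, 2.49 and 2.85 TPM (2.55 ± 0.269), and MEIS2 at 0.205 ± 0.0776. PKNOX2 (1.13 ± 0.0535) and MEIS3 (0.913 ± 0.203) lay between these. The list median was 2.55 TPM. Other reported partners of HOXB13 were abundant: FOXA1, a pioneer factor, at 386 ± 2.57 TPM and the corepressor gene NCOR1 at 63.8 ± 1.14.

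Among genes that regulate the HOX clusters, all 17 Polycomb genes were detected at 1 TPM or more, a level that 62.7% of protein-coding genes reached. Their median was 34.0 TPM, with CBX6 (189.8 ± 5.21) and CBX2 (129 ± 2.05) among the highest. All 15 trithorax and activator genes reached 1 TPM (median 54.9 TPM), led by MLLT1 (242 ± 3.88), KDM6A (120.4 ± 5.28) and WDR5 (96.7 ± 4.37). Of 13 genes for retinoid and patterning inputs, which make, break down or respond to signals that set HOX expression in the embryo, 10 were detected, a share near the 71.8% of protein-coding genes, with the retinoic acid receptor gene RARG at 25.9 ± 1.39 TPM, GDF11 at 16.7 ± 0.714 and RARA at 15.6 ± 1.07. CDX1 and CDX4 had 0 reads, and CDX2 was at 1.23 ± 0.0637 TPM. Of 13 ParaHox and HOX-linked homeobox genes, 6 were detected, a share below the 71.8% of protein-coding genes. Another 6 had 0 reads (GSX1, GSX2, EVX2, MEOX2, CDX1 and CDX4). MNX1 led the list at 27.0 ± 1.67 TPM, followed by PDX1 (7.52 ± 0.209) and GBX2 (3.09 ± 0.308).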

How the data were processed

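Total RNA of C4-2 cells was sequenced in 3 libraries. Per the labels' protocols, ribosomal RNA was depleted and the libraries were strand-specific. Per the submitters' processing notes, the tools were STAR 2.7.0f, Subread 1.6.3, Trim Galore and FastQC, with GRCh38 as the build. Per the file headers, the authors deposited raw read counts per gene from featureCounts 1.6.3 over Ensembl release 90 exons, with no strand, pairing or overlap option named. Replicates were not pooled.

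Gene names came from GENCODE release 44 (57532 of 58302 identifiers matched). TPM was computed from the counts and the files' exon lengths. TMM factors came from edgeR 4.0.16 in R 4.3.3, size factors from DESeq2 1.42.0, and the rest from Python 3.11.15 with numpy 2.4.6, pandas 2.3.3, scipy 1.17.1 and matplotlib 3.10.9. The chi-square test was tested on simulated data. Pairs of libraries differed beyond sampling noise (undivided chi-square of 5.31 to 10.4 per degree of freedom), so each counts once. Counting both mates of a fragment raises these values, and they do not show whether the libraries came from separate cultures. Total reads were 51200272, 47513470 and 49965601, and 3 reads in the smallest library equal 0.0631 CPM; such limits cover counting error only. The members, the gene lists and the tests were chosen with earlier results of these data known. A few genes, 1 HOX gene among them, are counted but not reported here by name. Otherwise every detected HOX gene is named, with the 3 highest and all zero-read members of the other lists, detected non-coding genes within 20 kb of a cluster, and detected coding neighbours within 200 kb. Alternatives were other library sizes, filters, lengths and scalings, and each library left out.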

Additional observations from a re-analysis of the deposited data

How the results depend on the processing

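The 6 differences between clusters and the 2 between paralog ranges kept their direction under every alternative run. Leaving out 1 library gave 2.44 to 2.47 (HOXB minus HOXA), 1.49 to 1.54 (HOXB minus HOXC), 4.99 to 5.17 (HOXB minus HOXD), 0.90 to 0.98 (HOXC minus HOXA), −2.71 to −2.54 (HOXD minus HOXA) and 3.45 to 3.65 log2 units (HOXC minus HOXD). It gave 2.05 to 2.11 for paralogs 9 to 13 minus 1 to 8 and −0.22 to −0.16 for paralogs 9 to 12 minus 1 to 8. The number of detected HOX genes was 24 to 35 over the alternatives and 32 to 34 with 1 library left out. The number that varied between libraries was 9 to 15 except without replicate 3 and with the statistic divided by 2, each of which left 3 genes; leaving out 1 library gave 3 to 11. Only 2 libraries are compared when 1 is left out, and the share of all detected genes called was then 32.8%, 23.9% and 23.8% without replicates 1, 2 and 3, against 34.4%, 26.5% and 9.38% of HOX genes. With all genes that had any read tested, the shares were 38.2% and 40.5%. The median of the 39 genes was 2.77 TPM with unshared exon bases as length, 3.32 TPM when scaled over nuclear protein-coding genes, 3.56 TPM over the 32 detected members, and 2.14 to 2.34 TPM with 1 library left out. The HOXB13 share was 53.2% with unshared exon bases as length and 57.1% to 57.6% with 1 library left out. No paired analysis was possible because the libraries form 1 group. Depth limits the undetected genes, whose levels rest on at most 31 reads in a library.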
